A study of Mus musculus with 23 samples.

Results

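Connexins are the proteins of gap junctions, and the 7 connexin genes described here are those that glia and the vessel wall of the cortex use: Gja1, Gjb6, Gjb2, Gjb1, Gjc3, Gja4 and Gjc1. They were chosen by symbol from the 24411 gene symbols of the count table, all 7 were present, and all 7 passed the filter on low counts in every comparison. RNA came from astrocytes that had been bound by magnetic beads against the surface antigen ACSA-2 from the cerebral cortex of male mice at postnatal day 70, with 1 library per mouse. All mice carried 2 floxed alleles of Aldh7a1. In cKOAstro mice (n = 7) a tamoxifen-inducible Cre recombinase expressed from the Slc1a3 locus, which is active in astrocytes, was present, and ConAstro mice (n = 4) lacked it. 4-hydroxytamoxifen was given at postnatal days 3 and 4. From each genotype a second group, 5 SFN-fed ConAstro and 7 SFN-fed cKOAstro mice, were fed sulforaphane (SFN), which activates the antioxidant transcription factor NRF2, from postnatal day 21, and the other groups ate the control diet. The comparisons below address whether loss of Aldh7a1 from astrocytes, the SFN diet or both moved the transcripts of gap junction proteins.

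A connexin subunit crosses the membrane repeatedly, and a ring of connexins forms a hemichannel that docks with a hemichannel of the neighbouring cell. Astrocytes join to each other mainly through connexin 43 (Gja1) and connexin 30 (Gjb6), which carry potassium, glucose and glutamate across the astrocyte network. Oligodendrocytes use connexin 32 (Gjb1) and join astrocytes through channels with a different connexin on each side. Connexin 29 (Gjc3) sits in the innermost myelin layer, connexin 26 (Gjb2) is known from the meninges and some astrocytes, connexin 37 (Gja4) from arterial endothelium and smooth muscle, and the connexin encoded by Gjc1 from mural cells, the pericytes and smooth muscle of vessels.

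The upstream sequences of 6 of the 7 genes were read from RefSeq promoter windows of mouse build GRCm38.p6, as the 250 bases before each annotated start, because SFN acts through NRF2 and NRF2 binds the antioxidant response element. The windows of Gja1 and Gjb6, the leading astrocyte connexins, are shown with the window of Gjb1 that continued into an annotated transcript. The Gjb6 window also continued into an annotated transcript. The Gja1 window did not continue directly into one, as it ended at base 56377299, shortly before the annotated start of the gene at base 56377330. Matches to 5 short motifs are in capitals.
Gja1, chr10:56377050-56377299, plus strand: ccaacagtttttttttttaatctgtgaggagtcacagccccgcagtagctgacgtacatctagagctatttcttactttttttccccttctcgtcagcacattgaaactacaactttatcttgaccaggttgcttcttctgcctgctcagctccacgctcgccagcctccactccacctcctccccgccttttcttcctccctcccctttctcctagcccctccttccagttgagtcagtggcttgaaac
Gjb6, chr14:57133612-57133861, minus strand: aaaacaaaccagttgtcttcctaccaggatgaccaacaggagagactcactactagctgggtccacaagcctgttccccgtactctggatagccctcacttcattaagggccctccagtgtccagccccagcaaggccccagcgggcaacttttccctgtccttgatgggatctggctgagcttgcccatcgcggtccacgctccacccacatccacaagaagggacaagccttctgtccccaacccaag
Gjb1, chrX:101383482-101383731, plus strand: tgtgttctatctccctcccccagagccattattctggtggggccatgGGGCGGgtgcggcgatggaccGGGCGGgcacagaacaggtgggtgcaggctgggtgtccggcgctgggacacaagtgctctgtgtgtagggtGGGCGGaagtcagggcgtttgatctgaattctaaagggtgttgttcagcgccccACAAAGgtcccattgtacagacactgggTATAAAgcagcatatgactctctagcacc
The motifs were searched on both strands and no match overlapped another. The antioxidant response element (tgacnnngc) was in 10.2% of all 32851 windows of this length. Among the connexins it was in 1 of the 4 windows of Gjb1, at bases -15 to -7 from the start that follows chrX:101376985-101377234. That window did not continue into an annotated transcript. None of the single windows of Gja1, Gjb6, Gjb2, Gjc3 and Gja4 held the element. The SP1 box (gggcgg), in 32.7% of all windows, occurred 3 times in the Gjb1 window shown, 2 times in that of Gjb2 and 1 time in that of Gja4. The TATA box (tataaa, 12.4% of all windows) and the SOX core (acaaag, 16.5%) were both in the Gjb1 window shown, and the E-box (cacgtg, 6.02%) was in no connexin window. A match describes letters in the window and is no evidence of binding.

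Total counts per library lay between 46890715 and 391701247, and the connexins took 0.252% to 0.384% of them. ConAstro libraries had 74771451 to 84049525 counts and cKOAstro libraries 107847897 to 391701247, so depth did not overlap between these groups. The lowest count of any connexin in any library was 671 (Gjb2), so counting error was small beside the spread between libraries. Aldh7a1, the targeted gene, checked the labels. It lay between 207 and 220 CPM (counts scaled to a library of 1000000 counts, with the trimmed mean of M values, TMM) in ConAstro and between 45.9 and 77.2 CPM in cKOAstro. In SFN-fed ConAstro the library labelled replicate 1 had 55.7 CPM against 177 to 226 CPM in the other 4, and in SFN-fed cKOAstro the library labelled replicate 2 had 222 CPM against 43.05 to 56.5 CPM in the other 6. Both went against their labels. They were kept in the labelled group, and values without them are given beside the results they touch. In cKOAstro replicate 2, labelled male, Xist was at 1541 CPM and the Y-linked Ddx3y at 0.0077 CPM. Libraries also came with names of 2 kinds, 6 called Astro and a number (2 in cKOAstro, 3 in SFN-fed cKOAstro, 1 in SFN-fed ConAstro) and 17 with numbers alone. All ConAstro libraries had numbers. The first part of the number was the same in all ConAstro libraries and occurred in no cKOAstro or SFN-fed ConAstro library. In the comparisons of these groups, genotype or diet cannot be told apart from this prefix, also in the numbered libraries alone. Numbered cKOAstro and numbered SFN-fed cKOAstro libraries shared no prefix either. The labels do not say what the prefix stands for.

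The selected cells carried astrocyte transcripts beside much oligodendrocyte RNA. The 10 astrocyte markers summed to 21273 to 33577 CPM and the 10 oligodendrocyte markers to 23788 to 61051 CPM over all libraries. Mural markers summed to 772 to 2124 CPM, endothelial markers to 192 to 813 CPM, and fibroblast and meningeal markers to 111 to 384 CPM. Neuron markers summed to 105 to 760 CPM, ependymal markers to 143 to 626 CPM and oligodendrocyte precursor markers to 750 to 1366 CPM. Of all these lists the microglia markers had the widest span, from 245 to 2720 CPM (11.1 times). In such bulk samples, fewer cells of a type and less RNA per cell cannot be told apart.

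Gja1 was the most abundant connexin transcript in CPM, and its distance per kb from Gjb6 depended on the length used. Levels were compared between genes per kb of the longest principal protein-coding transcript of GENCODE M21 (3182 bases for Gja1, 2105 for Gjb6, 4002 for Gjc3). Over all 23 libraries Gja1 had a level of 651 ± 85.4 CPM per kb (mean ± SD) and Gjb6 of 232 ± 83.1 CPM per kb. Gja1 was above Gjb6 in 23 of 23 libraries, by a median ratio of 3.19 (range 1.62 to 3.85), and the ranges of the 2 genes did not overlap. With the union of all exons as the length (10257 bases for Gja1 and 2674 for Gjb6), an alternative added after the values had been seen, Gja1 was at 202 and Gjb6 at 183 CPM per kb. The median ratio was then 1.26 (range 0.640 to 1.52), Gjb6 was above Gja1 in 5 of 23 libraries, and the ranges overlapped.
Gjc3 followed at 84.2 ± 16.1 CPM per kb and Gjb1 at 83.0 ± 23.3 CPM per kb. These myelin connexins could not be ordered, since Gjc3 was above Gjb1 in 16 of 23 libraries and the median ratio was 1.04. Gjb1 was above Gja4 in every library, by a median of 6.62 times. Gja4 (11.5 ± 2.21 CPM per kb), Gjc1 (9.38 ± 1.98) and Gjb2 (8.69 ± 1.60) formed the lowest tier, with overlapping ranges. Gja1 and Gjb6 together made up 64.9% to 87.8% of the length-scaled signal of the 7 genes in a library. With union lengths Gjc1 was at 4.34 CPM per kb. In SFN-fed cKOAstro replicate 4 the order differed from the means, with Gjb1 (182 CPM per kb) above Gjb6 (156 CPM per kb).

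**Figure D1:**
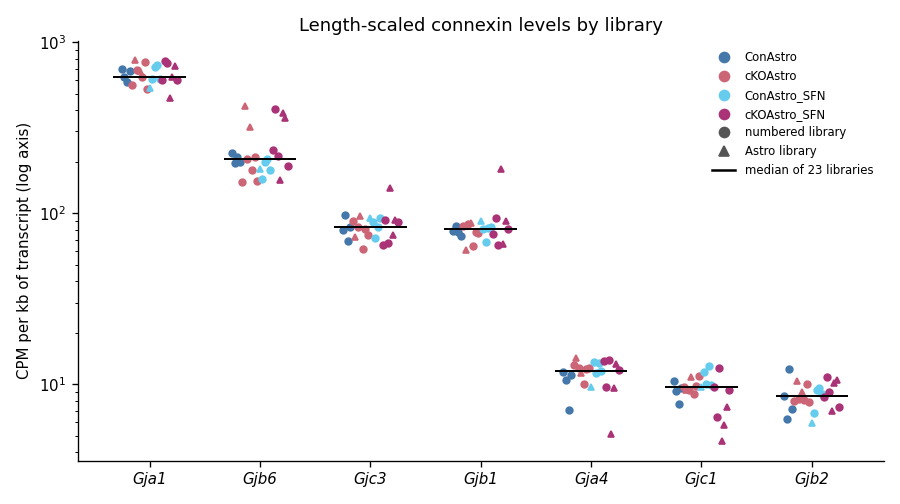
Length-scaled level of each connexin in each of the 23 libraries, in CPM per kb on a log axis, with colours for the 4 groups, triangles for Astro libraries and a line at the median. On this length Gja1 and Gjb6 lie above the other 5 genes in means over all libraries, Gjc3 and Gjb1 overlap, and Gja4, Gjc1 and Gjb2 overlap near 10 CPM per kb.

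Gja1, the connexin 43 gene, passed the test in no comparison, and its level moved by less than the spread between libraries. It had 2227, 1990, 1869 and 2154 CPM in the ConAstro libraries. In cKOAstro it ranged from 1694 through a median of 2152 to 2508 CPM. The SFN-fed ConAstro libraries had 1723 (the library labelled replicate 1), 1937, 2265, 2347 and 1943 CPM. SFN-fed cKOAstro ranged from 1498 through 1984 to 2479 CPM, and the 4 groups overlapped throughout. The log2 fold change of Gja1 was 0.026 ± 0.11 (SE) for cKOAstro against ConAstro and 0.010 ± 0.13 for SFN-fed cKOAstro against SFN-fed ConAstro. Its 95% intervals reached from -0.22 to 0.27 and from -0.27 to 0.29. Diet gave -0.019 ± 0.11 in ConAstro and -0.029 ± 0.12 in cKOAstro.

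Gjb6 was the most variable of the astrocyte connexins. In ConAstro it had 473, 413, 450 and 421 CPM, the narrowest spread of any group. In cKOAstro it had 320, 890, 435, 669, 378, 447 and 323 CPM in replicates 1 to 7, and the high values of 890 and 669 CPM belonged to the 2 Astro libraries. SFN-fed ConAstro had 381 (the library labelled replicate 1), 332.6, 419, 437 and 375 CPM.
SFN-fed cKOAstro had 493.1, 849 (the library labelled replicate 2), 453, 327, 808, 756 and 398 CPM. The values of 808 and 756 CPM were again Astro libraries, but so was the lowest, 327 CPM, and 849 CPM belonged to the numbered library whose Aldh7a1 was at the level of control mice. The log2 fold change for SFN-fed cKOAstro against SFN-fed ConAstro was 0.58 ± 0.23 (95% interval 0.090 to 1.07, edgeR adjusted p = 0.207), and 5 of its 7 libraries lay above and 1 below all 5 SFN-fed ConAstro libraries. Several marker lists lay mostly to 1 side of 0 in the same comparison, with 0 of their genes called. Of all 16672 genes tested there, 20.3% had an unadjusted p under 0.05. Fibroblast and meningeal markers were lower in 10 of 10 (median log2 fold change -0.92, 9 with an unadjusted p under 0.05), endothelial markers in 10 of 10 (median -0.70, 5), mural markers in 9 of 10 (median -0.45, 5) and microglia markers in 8 of 8 (median -0.54, 0). Oligodendrocyte markers were higher in 9 of 10 (median 0.26, 1) and ependymal markers in 6 of 6 (median 0.26, 0). Oligodendrocyte precursor markers were lower in 5 of 6 (median -0.43, 1). Neuron markers were split, 5 higher and 3 lower (median 0.047, 0), as were astrocyte markers, 4 higher and 6 lower (median -0.043, 1). The part of these cell types in the Gjb6 value was not tested. With the numbered libraries alone and without the library that went against its label, the log2 fold change of Gjb6 was 0.18 (95% interval -0.087 to 0.45).
For cKOAstro against ConAstro the log2 fold change of Gjb6 was 0.16 ± 0.26 with all libraries, -0.038 without cKOAstro replicate 2 and -0.20 in the numbered libraries alone, so its direction turned. Diet gave -0.18 ± 0.084 in ConAstro (edgeR adjusted p = 0.766) and 0.24 ± 0.27 in cKOAstro. The interaction of genotype and diet was 0.41 ± 0.36 (95% interval -0.34 to 1.16, adjusted p = 0.786). In the numbered libraries alone it was 0.68 (95% interval 0.14 to 1.22), and without the library against its label as well it was 0.40 (95% interval 0.045 to 0.76), and neither passed the adjusted threshold.

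Of the 5 libraries with Gjb6 above 600 CPM, 4 had Astro names, and the name series was fitted after these values had been seen, so the fit restates the pattern that prompted it. With the 4 groups as terms in 1 edgeR fit, Gjb6 was higher in the Astro libraries by 0.48 ± 0.19 on the log2 scale and did not pass the threshold (adjusted p = 0.115). Without the pair of libraries against their labels, which drops an Astro library at 381 CPM and a numbered library at 849 CPM, the difference was 0.77 ± 0.16 (95% interval 0.43 to 1.11, adjusted p = 0.00246). It was the one connexin of the 7 past the threshold in that fit, in which 17.3% of the 17264 genes tested were called. With all libraries 0 of 7 connexins and 5.91% of all genes were called. The name series was not labelled as a batch, and what it stands for was not tested.
Set against Gja1 of the same library, Gjb6 per kb of principal transcript was 25.9% to 39.2% of Gja1 in 18 libraries. In the other 5, those with Gjb6 above 600 CPM, it was 53.6% and 47.0% (cKOAstro replicates 2 and 4), 51.8% (in SFN-fed cKOAstro, the one labelled replicate 2), 61.5% and 49.8% (SFN-fed cKOAstro replicates 5 and 6). The split was made on Gjb6 itself, so a higher share of Gja1 in these 5 libraries was largely fixed in advance. The same 5 libraries also had the 5 lowest microglia marker sums of all 23. In the order just given the sums were 341, 336, 280.5, 245 and 261 CPM, and the other 18 libraries had 456 to 2720 CPM. The part of microglia RNA in the Gjb6 values was not tested.

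**Figure D2:**
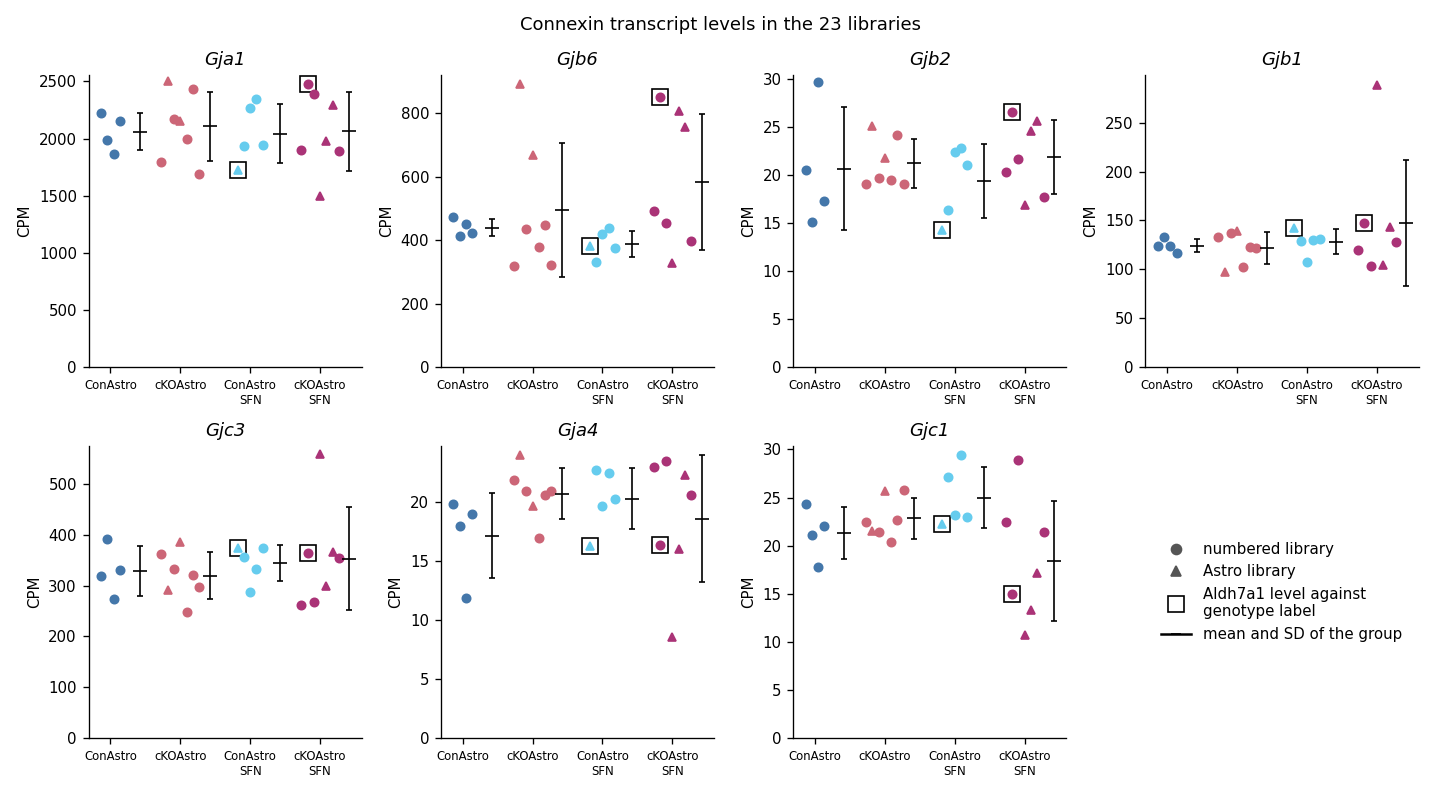
CPM of each connexin in every library by group, with circles for numbered and triangles for Astro libraries, squares around the 2 libraries whose Aldh7a1 went against the label, and bars at the mean ± SD of each group. The groups overlap for all 7 genes, Gjb6 has 5 libraries between 669 and 890 CPM, and Gjb1 and Gjc3 have a single high library in SFN-fed cKOAstro.

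Gjb2, the connexin 26 gene, was low in all groups. ConAstro libraries had 20.5, 15.1, 29.6 and 17.3 CPM. In cKOAstro it ranged from 19.1 through 19.7 to 25.1 CPM, in SFN-fed ConAstro it had 14.3 (the library labelled replicate 1), 16.4, 22.3, 22.8 and 20.99 CPM, and in SFN-fed cKOAstro it ranged from 16.9 through 21.6 to 26.6 CPM. The ConAstro libraries alone covered nearly the whole range. Its log2 fold change was 0.029 ± 0.16 for cKOAstro against ConAstro and 0.17 ± 0.15 for SFN-fed cKOAstro against SFN-fed ConAstro (adjusted p = 0.517).

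Gjb1 and Gjc3, the connexins of myelin, were close between groups save for 1 library. Gjb1 had 124, 133, 124 and 116 CPM in ConAstro. It ranged from 97.2 through 123 to 139 CPM in cKOAstro, and had 143 (the library labelled replicate 1), 129, 108, 130 and 132 CPM in SFN-fed ConAstro. In SFN-fed cKOAstro it had 119, 148 (the library labelled replicate 2), 103, 288, 104, 144 and 128 CPM.
Replicate 4 of SFN-fed cKOAstro, an Astro library, thus stood apart from the other 6. The lowest Gjb1 value, 97.2 CPM, was that of cKOAstro replicate 2, the library with Xist. Gjb1 lies on chromosome X, and a link of this value to sex was not tested. In cKOAstro replicate 5, with Xist at 0.384 CPM, Gjb1 had 102 CPM.
Gjc3 had 319, 392, 274 and 331 CPM in ConAstro and ranged from 248 through 322 to 385 CPM in cKOAstro. In SFN-fed ConAstro it had 373 (the library labelled replicate 1), 355, 287, 332 and 374 CPM. In SFN-fed cKOAstro it had 262, 364 (the library labelled replicate 2), 267, 560, 298, 367 and 354 CPM, again with the highest value in replicate 4. In that library the oligodendrocyte markers summed to 61051 CPM against 26535 to 38429 CPM in the other 6 of the group, and Gja1 (1498 CPM) and the astrocyte markers (21273 CPM) were at their lowest of all 23.
For SFN-fed cKOAstro against SFN-fed ConAstro the log2 fold change of Gjb1 was 0.21 ± 0.23 with all libraries and -0.059 without replicate 4 of SFN-fed cKOAstro. That of Gjc3 was 0.038 ± 0.18 and -0.13 without it. For cKOAstro against ConAstro both were near 0 (Gjb1 -0.035 ± 0.098 and Gjc3 -0.047 ± 0.12), and for the diet in cKOAstro Gjb1 was 0.29 ± 0.20 with and 0.030 without the same library.

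Gja4 and Gjc1, the connexins of the vessel wall, were lowest in that library too. Gja4 had 19.8, 17.9, 11.9 and 19.0 CPM in ConAstro and ranged from 16.9 through 20.96 to 24.0 CPM in cKOAstro. It had 16.3 (the library labelled replicate 1), 22.7, 19.7, 22.4 and 20.3 CPM in SFN-fed ConAstro, and ranged from 8.58 through 20.6 to 23.4 CPM in SFN-fed cKOAstro. For cKOAstro against ConAstro, Gja4 differed by 0.27 ± 0.13 (95% interval -0.014 to 0.55, adjusted p = 0.981). Without ConAstro replicate 3, the library at 11.9 CPM, the difference was 0.13.
Gjc1 had 24.4, 21.1, 17.8 and 22.1 CPM in ConAstro and ranged from 20.4 through 22.4 to 25.8 CPM in cKOAstro. It had 22.2 (the library labelled replicate 1), 27.2, 23.2, 29.5 and 22.98 CPM in SFN-fed ConAstro. In SFN-fed cKOAstro it had 22.4, 14.95 (the library labelled replicate 2), 28.9, 10.7, 13.3, 17.1 and 21.4 CPM, and 5 of these 7 were below every SFN-fed ConAstro library. The difference was -0.44 ± 0.21 on the log2 scale (95% interval -0.89 to 0.00070, adjusted p = 0.247). The 3 Astro libraries were among those 5, and in numbered libraries alone without the library against its label the difference was -0.099 (95% interval -0.42 to 0.22). The interaction was -0.54 ± 0.25 (unadjusted p = 0.0415, adjusted p = 0.674), and in the same numbered libraries it was -0.16 (95% interval -0.53 to 0.20). Mural markers summed to 772, 885 and 1272 CPM in the SFN-fed cKOAstro Astro libraries and to 1340 to 2124 CPM in SFN-fed ConAstro. Over all 7 SFN-fed cKOAstro libraries the sum ranged from 772 through a median of 1252 to 1857 CPM. That median was a numbered library, so sums below those of SFN-fed ConAstro were not confined to Astro libraries. The part of mural RNA in the Gjc1 difference was not tested.

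No connexin passed an adjusted p of 0.05 in any of the 6 comparisons by edgeR or by DESeq2. For cKOAstro against ConAstro, 0 of 7 passed, where 0.023% of 17406 genes tested did. At an unadjusted p under 0.05, 0 of 7 passed against 3.74% of all genes, and the CPM ranges of the groups failed to overlap for 0 of 7 against 0.494%. The connexins' median log2 fold change was 0.029, beside -0.0072 over all genes.
For SFN-fed cKOAstro against SFN-fed ConAstro, 0 of 7 passed the adjusted threshold, as did 0% of 16672 genes. Gjb6 alone had an unadjusted p under 0.05, against 20.3% of all genes, and 0 of 7 had ranges that did not overlap, against 1.23%. The median was 0.038, beside 0.0073 over all genes.
For the diet in ConAstro, 0 of 7 passed either the adjusted threshold (0% of 16509 genes) or an unadjusted p of 0.05 (6.54%), and 0 of 7 did not overlap (1.93%). For the diet in cKOAstro the counts were again 0 of 7, against 0% of 16903 genes, 10.9% and 0.0947%. SFN-fed cKOAstro against ConAstro gave 0 of 7, against 0% of 16753 genes, 8.67% and 1.45%. The interaction called 0 of 7. There 0% of 17302 genes passed the adjusted threshold and 7.32% an unadjusted p of 0.05, among them 1 of 7 connexins, Gjc1. The median of the connexins in these 4 was 0.037, 0.048, 0.090 and 0.077, beside -0.0055, 0.0061, -0.014 and -0.0038 over all genes. Comparisons that share a group are not independent, since they share its libraries.
The 95% intervals limit what these comparisons could show. The widest was that of Gjb6 in the interaction, from -0.34 to 1.16 on the log2 scale. A p above the threshold therefore does not show that levels were equal.

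**Figure D3:**
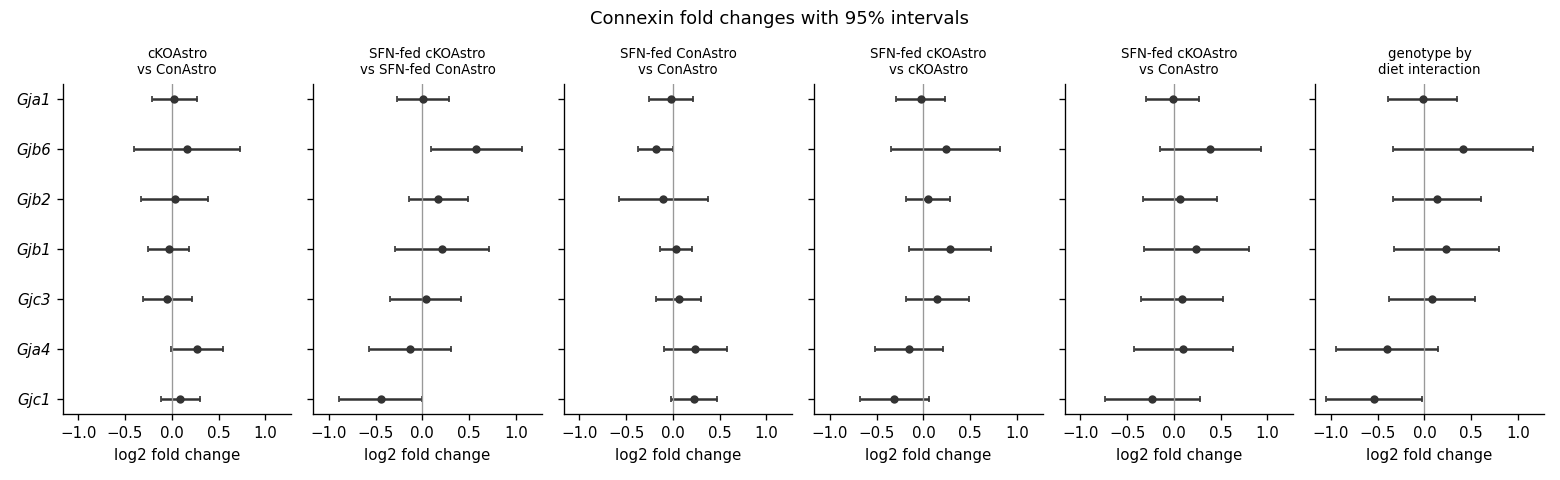
Log2 fold change of each connexin in the 5 group comparisons and the interaction, as points with 95% intervals from edgeR and a line at 0. The intervals of Gja1 lie within 0.4 of 0 in all panels, and those of Gjb6 for SFN-fed cKOAstro against SFN-fed ConAstro and Gjc1 for the interaction lie to 1 side of 0 before adjustment.

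The other genes of the gap junction did not pass the test either. Of 16 other connexins and pannexins, all 16 were in the table. In a comparison 5 to 7 passed the filter on low counts, and 0 were called by edgeR. For cKOAstro against ConAstro, 1 of 7 had an unadjusted p under 0.05, against 3.74% of all genes. In the other comparisons 0 did, against 6.54% to 20.3% of all genes.
Of 12 partners of connexins, 11 were in the table, 11 were tested and 0 were called by edgeR. The most abundant were Mlc1 and Hepacam, a pair of astrocyte membrane proteins, the ubiquitin ligase Nedd4, and Tjp1, the scaffold that binds the tail of connexin 43. Tjp1 was the 1 partner of 11 with an unadjusted p under 0.05, for SFN-fed cKOAstro against SFN-fed ConAstro (-0.46 ± 0.15, adjusted p = 0.195). Of all 16672 genes tested in that comparison, 20.3% had such a p. Mlc1 (0.054 ± 0.14), Hepacam (0.11 ± 0.087) and Nedd4 (-0.17 ± 0.10) had adjusted p from 0.359 to 0.844 in the same comparison.

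Across libraries the connexins varied in sets, and Gjb2, also known from the meninges, varied with Gja1 and Gjb6. Gjb1 and Gjc3 rose and fell together (Spearman's rho 0.87 over 23 libraries), as did Gjb6 and Gjb2 (0.74), which are neighbours on chromosome 14, Gja1 and Gjb6 (0.68), Gja1 and Gjb2 (0.60), and Gja4 and Gjc1 (0.59). Each myelin connexin had a rho below 0 with each of the other 5 genes. These are descriptions, since CPM of one library share its total.

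**Figure D4:**
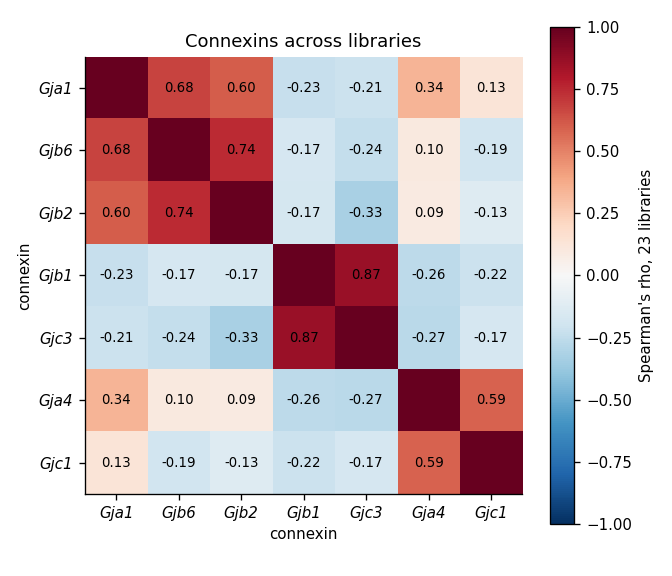
Spearman's rho between the log2 CPM of each pair of connexins over 23 libraries, printed in each cell on a colour scale from -1 to 1. Gjb1 with Gjc3 (0.87) and the 3 pairs among Gja1, Gjb6 and Gjb2 (0.60 to 0.74) are the high cells.

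Each connexin was set against the summed markers of a cell type, 7 relations in all, with permutation tests and Benjamini-Hochberg adjustment over the 7. Gja1 followed the astrocyte markers (Pearson's r = 0.87, adjusted permutation p = 3.5e-05, and rho = 0.85, adjusted p = 3.5e-05, n = 23), and r was 0.80 without the 2 libraries farthest from the median of the markers. Gjb1 followed the oligodendrocyte markers (r = 0.87, adjusted p = 7e-05, rho = 0.75, adjusted p = 0.00014), as did Gjc3 (r = 0.81, adjusted p = 4.7e-05, rho = 0.75, adjusted p = 0.00023). Without the 2 farthest libraries, among them SFN-fed cKOAstro replicate 4, these r were 0.62 and 0.64.
Gjc1 followed the mural markers most tightly (r = 0.92, adjusted p = 3.5e-05, rho = 0.87, adjusted p = 3.5e-05, and r = 0.83 without the 2 farthest). The unadjusted permutation p of Gja1 and Gjc1 was 1e-05, the smallest that 100000 resamples can give. Within numbered libraries (n = 17) r was 0.89 for Gja1, 0.89 for Gjb1, 0.68 for Gjc3 and 0.83 for Gjc1. Within the 6 Astro libraries r was 0.92, 0.92, 0.88 and 0.97 (exact permutation, adjusted p = 0.0389, 0.070, 0.070 and 0.0195). The rho of the same 4 were 0.89, 0.60, 0.49 and 0.94 (exact permutation, adjusted p = 0.117, 0.423, 0.498 and 0.117), and none passed.
The remaining 3 relations had lower r. Gjb6 had r = 0.36 with the astrocyte markers (permutation p = 0.0923, adjusted 0.129, rho = 0.45, p = 0.0331, adjusted 0.0463), and r was 0.19 without the 2 farthest libraries (rho = 0.28, neither past the threshold). Within numbered libraries its r was 0.50 (permutation, adjusted p = 0.049), as deviations from the group means 0.46 (permutation, adjusted p = 0.037), and within Astro libraries 0.79 (exact permutation, adjusted p = 0.070). Gja4 had r = 0.29 with the endothelial markers (permutation p = 0.179, rho = 0.22, p = 0.311, and r = 0.18 without the 2 farthest). Gjb2 had r = -0.30 with the fibroblast and meningeal markers (permutation p = 0.161, rho = -0.39, p = 0.0646, and r = -0.57 without the 2 farthest).

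**Figure D5:**
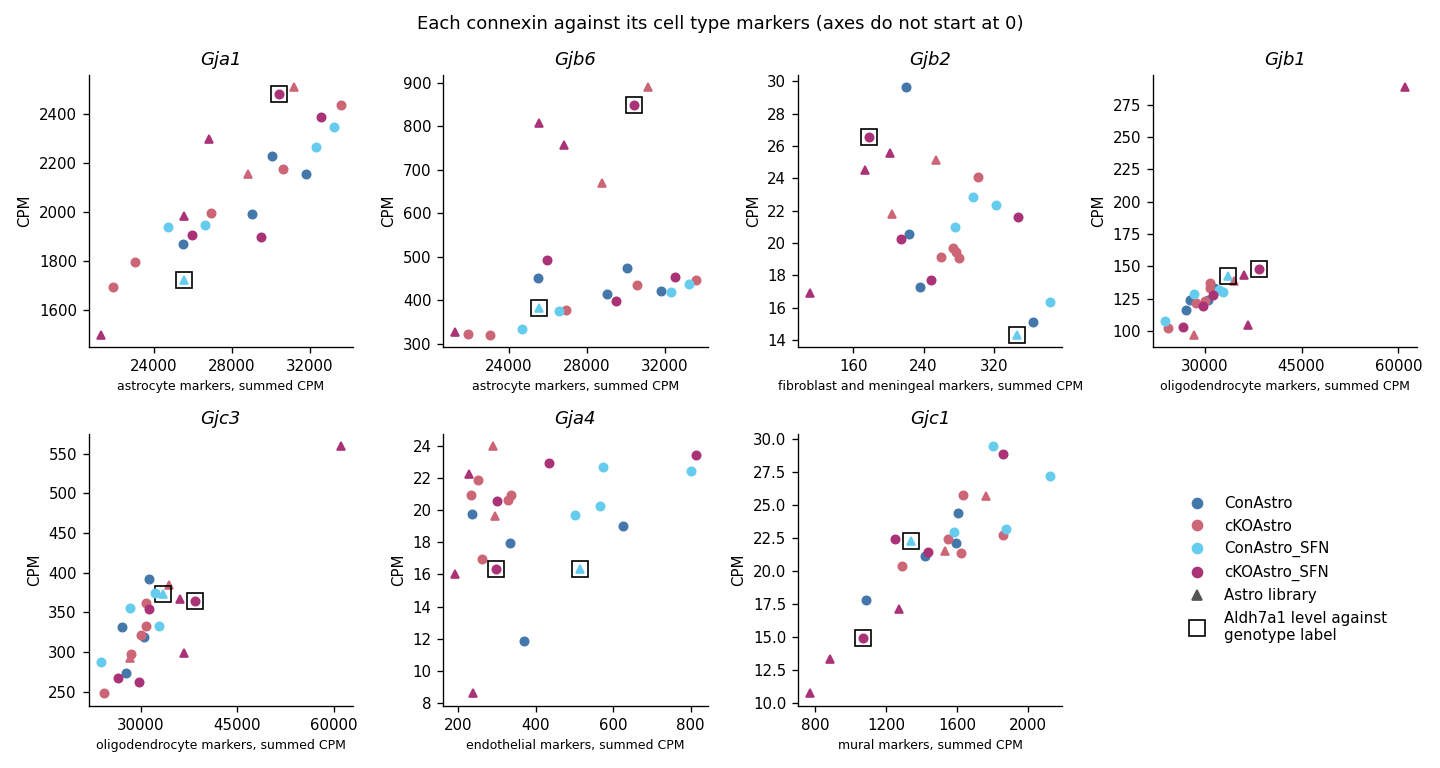
CPM of each connexin against the summed CPM of its cell type markers, 1 point per library, with colours for the groups, triangles for Astro libraries and squares around the 2 libraries against their labels, on axes that do not start at 0. Gja1, Gjb1, Gjc3 and Gjc1 rise with their markers (r = 0.87, 0.87, 0.81 and 0.92), and Gjb6 has 5 libraries between 669 and 890 CPM, which lie above the other 18 at like sums of astrocyte markers.

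The genes most like each connexin, by Spearman's rho of log2 CPM over 23 libraries among 17301 genes, were read by a fixed rule of 5 per connexin. Gja1 was most like Atp1b2 (rho 0.94), the gene of the ACSA-2 antigen itself, Ntrk2 (0.92), Gpld1 (0.91), Cyp2j9 (0.91) and Entpd2 (0.91). Gjb6 was most like Acsl3 (0.95), a fatty acid activating enzyme, Amigo2 (0.94), Kcnk1 (0.94), a potassium channel, Crot (0.94) and Entpd6 (0.93). Gjb2 was most like Kcnk2 (0.87), Fam49a (0.83), Cybrd1 (0.82), Cyp2j9 (0.81) and Fitm2 (0.81).
Gjb1 was most like Cpox, Mapk8ip1, Tmem98, Gal3st1, a sulfotransferase of myelin lipids, and Gjc3, all with a rho of 0.87. Gjc3 was most like Atg4c, Map7d1, Ypel2, Car14 and Ttyh2 (0.92 to 0.93). Gja4 was most like Nbl1, Tmem200b, Eva1b, P2ry14 and Myl9, with lower values of 0.74 to 0.77. Gjc1 was most like Vtn (0.88), Higd1b (0.86), Ntn1 (0.86), Sh2d3c and Atp2a3, and both Vtn and Higd1b stood on the mural marker list. With 17301 genes ranked, the leading genes of each list have a high rho in part by selection.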

How the data were processed

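ACSA-2 selected cortical astrocytes of 23 mice were profiled by paired-end sequencing of polyadenylated RNA. The authors aligned reads to mm10 with STAR after FastQC and deposited raw read counts per gene symbol, 1 column per library, unnormalised and unpooled. Versions, annotation and strand use are not given in the sources used here. Between 63.2% and 66.7% of counts from 1 to 20 were even, so a count may not stand for a single fragment. No 2 libraries of a group were alike within counting noise (chi-square per degree of freedom of at least 44.1).

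Counts were tested with edgeR 4.0.16 in R 4.3.3 (quasi-likelihood, TMM, filterByExpr with a minimum count of 10 and total of 15), on the 2 groups compared or, for the interaction, on all 4, with Benjamini-Hochberg adjustment over all genes and a threshold of 0.05. SE is the size of the log2 fold change over sqrt(F). Log2 CPM used a prior count of 2. GENCODE M21 gave lengths, and no connexin overlapped another gene. Outside ConAstro, libraries of a group differed in name series or prefix, whose meaning is not given. The p-values therefore measure the spread between libraries, in which mouse and name cannot be told apart.

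Named were the 7 connexins, up to 4 most abundant genes of the other gap junction and partner lists, the 5 most alike genes per connexin, and Aldh7a1. Values of the other gap junction genes are not reported here, only their counts. Members and lists were chosen with earlier results of these data known. Alternatives were DESeq2 1.42.0 (the study's tool), relative log expression (RLE) normalization, no filter, a replicate block, subsets by name series and label, a name series covariate, and each library left out. The edgeR tests were checked on counts simulated with 1 spread setting for all genes and no name series. The permutation tests were checked on random values. The simulated spread was narrower than that of Gjb6 in the cKOAstro groups, so such a case was not checked.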

Additional observations from a re-analysis of the deposited data

Results flagged for a closer look

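Of 28 sets of values tested (7 connexins in 4 groups), 2 held a library whose gap to the next exceeded Dixon's 95% critical value, and chance gives about 1 in 20. In SFN-fed cKOAstro, Gjb1 stood at 288 CPM in replicate 4, and Gjc3 stood at 560 CPM in the same library. It also had the highest summed oligodendrocyte markers of all 23 libraries, 61051 CPM.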

How the results depend on the processing

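No connexin was called in any comparison under DESeq2, RLE normalization, no filter, a replicate block, either library subset, the name series covariate or any of the 80 fits that left out 1 library (the number called ranged from 0 to 0), and the lowest adjusted p among these was 0.0709. All 42 log2 fold changes kept their sign under DESeq2 and RLE normalization. Of 560 log2 fold changes with 1 library left out, 505 kept their sign and 55 did not. What follows are the values that changed sign, and the cause was not tested. With numbered libraries alone, the log2 fold changes that changed sign were Gja1 -0.021, Gjb6 -0.20 and Gjb2 -0.019 for cKOAstro against ConAstro, Gjb1 -0.016 and Gjc3 -0.13 for SFN-fed cKOAstro against SFN-fed ConAstro, Gja1 0.034 and Gjb1 -0.0061 for SFN-fed ConAstro against ConAstro, Gja1 0.076, Gjb1 -0.014, Gjc3 -0.029 and Gja4 0.0095 for SFN-fed cKOAstro against cKOAstro, Gja1 0.050, Gjb1 -0.019, Gjc3 -0.098 and Gjc1 0.016 for SFN-fed cKOAstro against ConAstro, and Gja1 0.039, Gjb1 -0.0093 and Gjc3 -0.060 for the interaction. With numbered libraries alone and without the library whose Aldh7a1 level went against its label, the log2 fold changes that changed sign were Gja1 -0.057, Gjb2 -0.070, Gjb1 -0.11, Gjc3 -0.21 and Gja4 0.053 for SFN-fed cKOAstro against SFN-fed ConAstro, Gja1 0.023, Gjb2 -0.039, Gjb1 -0.088, Gjc3 -0.093, Gja4 0.13 and Gjc1 0.097 for SFN-fed cKOAstro against cKOAstro, Gjb2 -0.084, Gjb1 -0.11, Gjc3 -0.18 and Gjc1 0.16 for SFN-fed cKOAstro against ConAstro, and Gjb2 -0.031, Gjb1 -0.083 and Gjc3 -0.12 for the interaction. With the name series as a covariate, the log2 fold changes that changed sign were Gja1 -0.035, Gjb6 -0.21 and Gjb2 -0.033 for cKOAstro against ConAstro, Gjc3 -0.050 for SFN-fed cKOAstro against SFN-fed ConAstro, Gja1 0.037 and Gjb1 -0.0035 for SFN-fed ConAstro against ConAstro, and Gja1 0.054, Gjb1 -0.015, Gjc3 -0.096 and Gjc1 0.022 for SFN-fed cKOAstro against ConAstro. Without both libraries whose Aldh7a1 level went against the label, the log2 fold change of Gja1 became -0.092 for SFN-fed cKOAstro against SFN-fed ConAstro, those of Gja1 and Gjb1 became 0.034 and -0.0061 for SFN-fed ConAstro against ConAstro, and that of Gjb2 became -0.0043 for SFN-fed cKOAstro against cKOAstro. With no filter on low counts, that of Gja1 became 0.0046 for SFN-fed cKOAstro against ConAstro. Leaving out single libraries, the log2 fold changes that crossed 0 for cKOAstro against ConAstro ranged as follows, Gjb2 from -0.088 to 0.26, Gjb1 from -0.070 to 0.017, Gjc3 from -0.12 to 0.051, Gja1 from -0.017 to 0.072 and Gjb6 from -0.038 to 0.25. For SFN-fed cKOAstro against SFN-fed ConAstro, Gja1 ranged from -0.041 to 0.068, Gjc3 from -0.13 to 0.092 and Gjb1 from -0.059 to 0.27. For SFN-fed ConAstro against ConAstro, Gja1 ranged from -0.071 to 0.034, Gjb2 from -0.23 to 0.13, Gjc3 from -0.021 to 0.15 and Gjb1 from -0.0061 to 0.095. For SFN-fed cKOAstro against cKOAstro, Gja1 ranged from -0.079 to 0.034, Gjb2 from -0.0043 to 0.10 and Gjc3 from -0.0047 to 0.22. For SFN-fed cKOAstro against ConAstro, Gja1 ranged from -0.049 to 0.054, Gjb2 from -0.046 to 0.31, Gja4 from -0.028 to 0.23, Gjb1 from -0.012 to 0.31 and Gjc3 from -0.057 to 0.19. For the interaction, Gja1 ranged from -0.077 to 0.049, Gjc3 from -0.069 to 0.15, Gjb2 from -0.11 to 0.27 and Gjb1 from -0.012 to 0.31.

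Replicate numbers did not pair the libraries: at most 2 pairs of a comparison had deviations that correlated above 0.1 (range -0.21 to 0.34). With a replicate block 0 connexins were called, and the log2 fold changes that changed sign were Gjb1 0.0021 and Gjc3 0.053 for cKOAstro against ConAstro, Gja1 -0.0099 and Gjc3 -0.037 for SFN-fed cKOAstro against SFN-fed ConAstro, and Gja4 -0.031 for SFN-fed cKOAstro against ConAstro.

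Among the relations to markers, Gjb6 passed the threshold in numbered libraries alone (r = 0.50) and as deviations within groups (r = 0.46), and Gjb2 passed without the 2 libraries farthest from the median of its markers (r = -0.57). In the 6 Astro libraries, an alternative chosen after seeing the data, as were the numbered libraries without the library against its label and the union lengths, Gjb1 (r = 0.92) and Gjc3 (r = 0.88) no longer passed. The 4 ConAstro libraries and the wide spread of Gjb6 limit the precision of the control comparisons, not depth, since no connexin had fewer than 671 counts in a library.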
